A study of Mus musculus with 2 samples.

Results

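The chemokine system of the mouse dura mater is described here through 52 genes, taken by symbol from 33696 genes in the count tables. They comprise 17 CC ligand genes, 12 CXC ligand genes (Pf4 and Ppbp among them), 1 CX3C and 1 XC ligand gene, 17 receptor genes and 4 atypical receptor genes. The tables come from droplet-based single-cell RNA sequencing of viable single cells sorted from the digested dura of female mice. The JVL-14 library was made from dura on day 14 after ligature of the jugular veins, and the sham library from mice after sham surgery, with no time stated. Each group has 1 library, cells of 2 meninges were combined per well, and the labels state neither the number of mice nor their age or strain. The comparison asks how chemokine transcripts are spread over the cells of the dura, and how they differ once the jugular veins have been ligated.

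Chemokines are small secreted proteins that guide the movement of leukocytes through G protein-coupled receptors. CC ligands mainly draw monocytes, dendritic cells and lymphocytes, CXC ligands of the Cxcl1 to Cxcl5 group draw neutrophils through Cxcr2, and Cxcl12 holds leukocytes and progenitors in bone marrow and along vessels through Cxcr4. Atypical receptors bind chemokines without G protein signalling and remove or store them. The dura holds resident macrophages, mast cells and fibroblasts, and lies beside skull bone marrow, so both local and marrow-derived leukocytes can be in a dissected sample.

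After filtering, 2459 cells with a median of 4499 UMIs (unique molecular identifiers, counted transcripts) were retained in JVL-14 and 4690 cells with a median of 4514 UMIs in sham. The libraries shared 2 deposited barcodes, of which 1 was retained. The cells recovered differed: JVL-14 held 3 skeletal muscle-like and no choroid plexus-like or pineal-like cells, against 248, 79 and 54 in sham. The clustering took both libraries at once and left out the 52 genes, and clusters were named from marker genes that also left them out, so no class rests on a chemokine. Of 39 clusters, 4 stayed unnamed. Cluster 3 held 6.02% of JVL-14 and 5.46% of sham cells, cluster 19 held 0.976% and 2.28% in that order, cluster 29 held 0.935% and 0.938%, and cluster 33 held 0.569% and 0.981%. Interferon-induced genes such as Ifit3 and Isg15 led clusters 19 and 29, and cluster 29 scored best for macrophage markers. All classes are named by likeness, as in macrophage-like cells, and are called macrophages and so on from here. Rebuilt names can differ from those of the study.

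A level is given as CPM, the UMIs of a gene per 1000000 UMIs of the same class and library. Brackets give 95% intervals for counting error only, and the true error is larger where the UMIs of a gene sit in a handful of cells. No test was possible, since each group has a single library, and differences between animals, dissections and library preparations cannot be told apart from the ligature. Of the 52 genes, 39 had at least 100 UMIs over both libraries. For 29 of these 39 the class with the highest level was the same in JVL-14 and sham.

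The low end of the family was short of counts in the retained cells of both libraries. The platelet chemokine gene Ppbp had 1 UMI in JVL-14 and 5 in sham, and the Ccr7 ligand gene Ccl21a had 5 and 11. For Ccl21a this holds for retained cells only. Of all its UMIs, 98.3% in JVL-14 and 97.5% in sham lay in barcodes that were left out. Ccl21a reads also cannot be told apart from its near-identical copies. Cxcr1 had 1 UMI in JVL-14 and 0 in sham, Ccr3 had 1 and 7, Ccr4 had 2 and 8, Ccr6 had 8 and 7, and the scavenging receptor gene Ackr2 had 1 and 8. Cxcl5, a Cxcr2 ligand gene, had 20 UMIs in JVL-14 and 29 in sham. The other genes under 100 UMIs in all were Ccr8, Ccr9, Ccr10, Cxcr5 and Ackr4, which are given with the receptors.

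The promoter sequences of 4 genes are shown, chosen as follows. Of these, 3 belong to nearby CXC ligand genes that share one motif and were low together in JVL-14 dendritic cells. The other belongs to Cxcl10, a ligand gene whose level was highest in the interferon-led clusters. It was not alone in this. Among classes of at least 20 cells per library, Cxcl9 and Ccl12 were also highest in cluster 29 in both libraries, and their promoters are not shown. Of the 52 genes, 14 lie on chromosome 11 and 10 on chromosome 5 in GRCm38.p6. Among those 10, Cxcl3, Cxcl1 and Cxcl2 come in this order with none of the others between them. Genes outside the 52 were not placed. Each window covers 250 bases before and 50 after the start of the RefSeq gene (GRCm38.p6), read 5′ to 3′ on the gene's strand. Capitals mark the NF-kB type motif (GGGA, any 1 base, TTTCC) in the first 3 and the interferon-response type motif (GAAA, any 2 bases, GAAA) in the Cxcl10 sequence, both searched on both strands.

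Cxcl1 (chr5:90890995-90891294, plus strand): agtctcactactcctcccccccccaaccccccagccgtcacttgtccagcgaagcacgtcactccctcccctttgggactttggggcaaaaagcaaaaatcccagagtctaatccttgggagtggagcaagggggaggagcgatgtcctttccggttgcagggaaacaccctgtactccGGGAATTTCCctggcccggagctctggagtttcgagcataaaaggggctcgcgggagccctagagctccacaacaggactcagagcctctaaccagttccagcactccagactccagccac
Cxcl2 (chr5:90903649-90903948, plus strand): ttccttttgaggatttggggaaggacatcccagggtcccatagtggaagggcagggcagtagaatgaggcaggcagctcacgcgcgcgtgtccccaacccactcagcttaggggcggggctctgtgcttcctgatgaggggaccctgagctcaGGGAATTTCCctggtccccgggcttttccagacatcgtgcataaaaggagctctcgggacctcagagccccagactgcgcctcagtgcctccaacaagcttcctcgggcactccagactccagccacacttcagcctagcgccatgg
Cxcl3 (chr5:90785851-90786150, plus strand): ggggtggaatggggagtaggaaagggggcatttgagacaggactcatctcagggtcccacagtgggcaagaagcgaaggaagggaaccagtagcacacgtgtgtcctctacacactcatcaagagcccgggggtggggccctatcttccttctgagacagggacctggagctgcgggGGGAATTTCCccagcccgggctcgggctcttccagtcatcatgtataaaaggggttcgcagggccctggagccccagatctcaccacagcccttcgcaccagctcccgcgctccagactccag
Cxcl10 (chr5:92348840-92349139, minus strand): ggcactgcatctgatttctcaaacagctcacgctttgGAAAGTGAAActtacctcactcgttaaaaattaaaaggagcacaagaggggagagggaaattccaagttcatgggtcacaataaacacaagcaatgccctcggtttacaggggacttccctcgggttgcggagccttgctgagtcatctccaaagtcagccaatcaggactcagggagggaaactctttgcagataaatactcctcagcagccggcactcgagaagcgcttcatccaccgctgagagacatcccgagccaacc

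The same letters GGGAATTTCC stood 71 to 62 bases before the start in Cxcl1, 97 to 88 bases before it in Cxcl2 and 73 to 64 bases before it in Cxcl3. A promoter was found for 41 of the 52 genes. The NF-kB type motif occurred in 4 of these 41 (Ccr3 beside the 3 CXC genes) and in 0.411% of all 32851 promoters of that length. The interferon-response type motif occurred in 3 of the 41 (Cxcl10, Ccl19 and Cxcl14) and in 3.44% of all promoters. Cxcl9, which is among the 41, lacked it, and a link between this motif and the level in the interferon-led clusters was not tested. A looser pattern (GGG, any 5 bases, CC), which includes every match of the NF-kB type motif, occurred in 22 of the 41 and in 50.8% of all. A match describes letters in the window and not a bound site.

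The monocyte-attracting CC ligands had mast cells and macrophages as their main sources. Ccl2, the main ligand of Ccr2, reached 4544 CPM [4117 to 5003] in JVL-14 mast cells and 4179 CPM [3911 to 4460] in sham mast cells. In macrophages it stood at 1579 CPM in JVL-14 and 1219 CPM in sham. Mast cells, though only 26 in JVL-14 and 71 in sham, therefore had the highest level in both libraries, while macrophages held 63.4% of all Ccl2 UMIs in JVL-14 and 55.7% in sham. Ccl7, a further Ccr2 and Ccr1 ligand gene beside Ccl2 on chromosome 11, had 1741 CPM in JVL-14 mast cells against 3018 CPM in sham ones, and 1936 CPM in JVL-14 against 1034 CPM in sham in cluster 29. Every mast cell with a Ccl7 UMI also had a Ccl2 UMI, 12 of 12 in JVL-14 and 25 of 25 in sham. Among all mast cells, 25 of 26 in JVL-14 and 63 of 71 in sham had a Ccl2 UMI, so this overlap says little. In olfactory-type neurons, which should lack both genes and had medians of 8179 UMIs in JVL-14 and 9078 in sham, Ccl2 stood at 1.25 and 2.98 CPM in that order.

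Ccl12 and Ccl8, a pair of Ccr2 and other CC receptor ligands, were macrophage genes. Ccl12 had 1136 CPM in JVL-14 and 1063 CPM in sham macrophages, and in the interferon-led cluster 29 it reached 3985 CPM in JVL-14 and 5043 CPM in sham. Ccl8 had 613 CPM in JVL-14 and 673 CPM in sham macrophages. Ccl24, an eosinophil attractant acting on Ccr3, had 117 CPM in JVL-14 and 139 CPM in sham macrophages, which held 92.7% of its UMIs in JVL-14 and 82.9% in sham. Ccr3 itself had almost no UMIs.

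Ccl3 and Ccl4, CC ligands that are made by activated myeloid cells, had high levels in macrophages and in cluster 29. These were the 2 highest levels of Ccl3 in each library, while Ccl4 in dendritic cells, at 786 CPM in JVL-14 and 925 CPM in sham, was below macrophages in JVL-14 (1780 CPM) and above them in sham (830 CPM). Ccl5, a CC ligand known from T cells and dendritic cells, reached 835 CPM in JVL-14 T cells (23 cells) and 3071 CPM in sham T cells (39 cells), and 413 CPM in JVL-14 dendritic cells against 794 CPM in sham ones. In the JVL-14 cells of cluster 19 Ccl5 stood at 891 CPM, against 7.55 CPM in sham, but 5 cells held 100% of those JVL-14 UMIs. Ccl6 and Ccl9, Ccr1 ligands known from mice, were genes of the granulocyte and monocyte side. Ccl6 had 2010 CPM in JVL-14 and 2335 CPM in sham neutrophils, and 990 CPM in JVL-14 and 1204 CPM in sham monocytes. Ccl9 was highest in monocytes, with 273 CPM in JVL-14 and 340 CPM in sham.

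Dendritic cells were the source of the Ccr4 ligands Ccl17 and Ccl22, and both were lower in JVL-14. All 32 Ccl22 UMIs in JVL-14 and 98.6% of those in sham were in dendritic cells. The eosinophil attractant Ccl11 was a fibroblast gene, with 97.4% of its UMIs in fibroblasts in JVL-14 and 96.9% in sham. Ccl19, a Ccr7 ligand with near-identical copies in the mouse genome that make its counts uncertain, was also made by fibroblasts, with 209 CPM in JVL-14 and 179 CPM in sham. Ccl25, the Ccr9 ligand, stayed low in every class of at least 20 cells per library and was highest in other neurons, with 44.6 CPM in JVL-14 and 45.3 CPM in sham. Innate lymphoid cells made Ccl1, a Ccr8 ligand, at 585 CPM [488 to 695] in JVL-14 and 489 CPM [434 to 549] in sham.

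Cxcl2, which draws neutrophils, was itself highest in neutrophils. They held it at 8103 CPM [7749 to 8470] in JVL-14 and 7084 CPM [6825 to 7350] in sham, maturing neutrophils at 1427 and 1420.1 CPM in that order, and macrophages at 2066 and 1865 CPM. Its neighbour Cxcl1 had other sources, and its highest level in a class of at least 20 cells per library was in Schwann or glial cells, where 3 cells held all of its UMIs in each library. Cxcl1 in mural cells rested on 3 UMIs in JVL-14 and 54 in sham. Cxcl3 was scarce, with 14 UMIs in JVL-14 and 102 in sham, and was highest in neutrophils.

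Pf4, a heparin-binding CXC ligand best known from platelets, was a macrophage gene here. Macrophages held 90.1% of its UMIs in JVL-14 and 90.7% in sham, at 3060 CPM [2962 to 3161] in JVL-14 and 3175 CPM [3107 to 3244] in sham. Cxcl16, the membrane-bound ligand of Cxcr6, was spread over macrophages (333 CPM in JVL-14 and 289 CPM in sham), arachnoid barrier cells (166 and 133 CPM in that order) and fibroblasts (137 and 110 CPM). It was above sham in JVL-14 in each of these 3 classes, with ratios of 1.16, 1.24 and 1.24, but below sham in dendritic cells (139 CPM in JVL-14 and 176 CPM in sham, a ratio of 0.787 [0.601 to 1.02]) and in neutrophil precursors (2.24 and 37.0 CPM in that order).

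The interferon-induced Cxcr3 ligands Cxcl9 and Cxcl10 were concentrated in the interferon-led clusters. In cluster 29 Cxcl9 stood at 1946 CPM in JVL-14 and 1347 CPM in sham, and Cxcl10 at 1004 and 2185 CPM in that order. In cluster 19 Cxcl10 stood at 1137 CPM in JVL-14 and 674 CPM in sham. These clusters hold 23 and 24 JVL-14 cells, and 5 cells held 94.7% of the Cxcl9 UMIs of cluster 29 in JVL-14 and 91.8% in sham. The direction thus differed between the ligands within cluster 29, where the ratio was 1.45 for Cxcl9 and 0.460 for Cxcl10.

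Cxcl12 was the ligand of the vessel wall and the stroma. Blood endothelial cells held 1853 CPM [1624 to 2105] in JVL-14 and 1592 CPM [1472 to 1719] in sham, from 45 and 166 cells. This class pools cluster 18 (42 JVL-14 and 95 sham cells) with cluster 28 (3 and 71 in that order), so the libraries filled it differently. Within cluster 18 Cxcl12 had 1590 CPM in JVL-14 and 1100 CPM in sham, a ratio of 1.45 [1.20 to 1.73]. Fibroblasts held 332 CPM in JVL-14 and 433 CPM in sham, arachnoid barrier cells 259 and 334 CPM in that order, and osteoblast lineage cells 249 and 279 CPM. The ratio was 0.767 [0.714 to 0.824] in fibroblasts and 0.775 [0.690 to 0.869] in arachnoid barrier cells, so neither passed 2-fold. Cxcl13, the Cxcr5 ligand that draws B cells, had 124 UMIs in JVL-14 and 283 in sham and was highest in clusters 29 and 19 in JVL-14 and in cluster 19 in sham. Cxcl14, a ligand with a debated receptor, was mainly in fibroblasts, which held 69.5% of its UMIs in JVL-14 and 77.0% in sham.

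The membrane-bound Cx3cl1 was low, at 55.0 CPM in JVL-14 and 80.3 CPM in sham blood endothelial cells. Within cluster 18 of that class it had 57.7 CPM in JVL-14 and 110 CPM in sham. Xcl1, which attracts Xcr1-bearing dendritic cells, was found in T cells alone, with all 107 UMIs in JVL-14 and all 69 in sham.

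**Figure D1:**
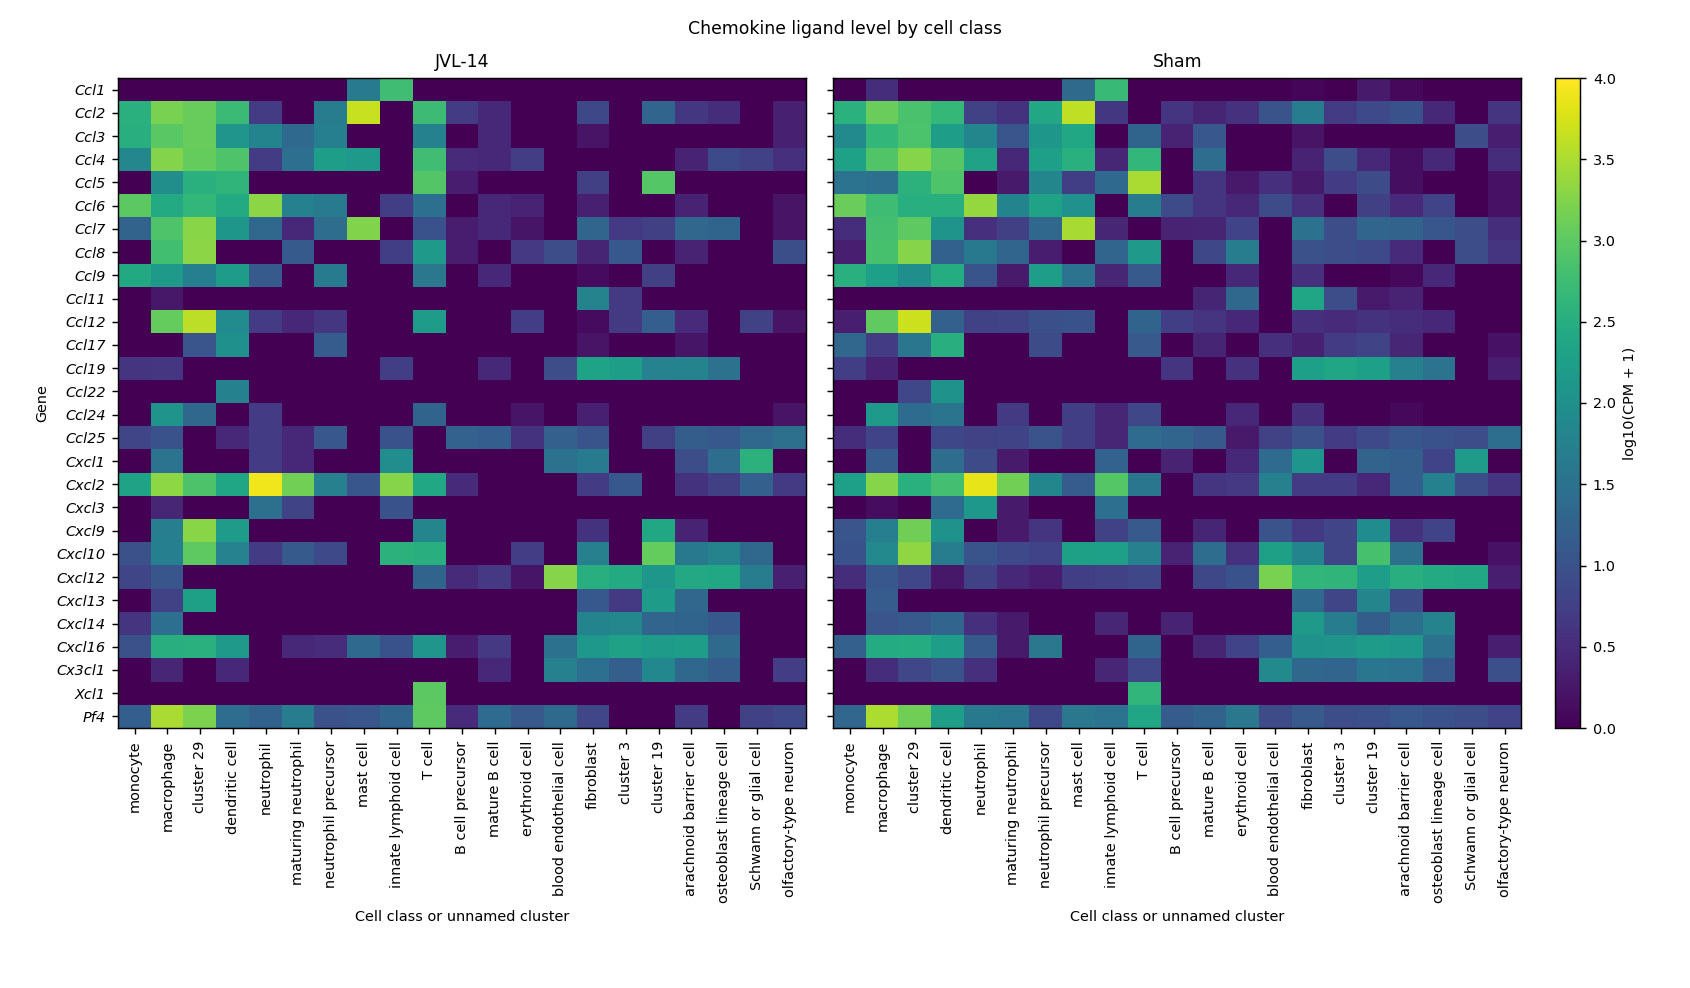
Level of the ligand genes with at least 100 UMIs in all (rows) in 21 classes and unnamed clusters (columns), JVL-14 on the left and sham on the right, as log10(CPM + 1). Within its row, Cxcl2 is brightest in neutrophils (8103 CPM in JVL-14 and 7084 CPM in sham), Pf4 in macrophages, Ccl2 in mast cells and Cxcl12 in blood endothelial cells in both panels.

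The receptors are given by lineage, beginning with neutrophils. Cxcr2, the neutrophil receptor for Cxcl1 and Cxcl2, stood at 512 CPM [426 to 610] in JVL-14 neutrophils and 321 CPM [268 to 382] in sham neutrophils, a ratio of 1.59 [1.23 to 2.06]. In maturing neutrophils it stood at 98.9 CPM in JVL-14 and 85.6 CPM in sham. Ccr1, a receptor for Ccl3, Ccl5, Ccl6 and Ccl9, was highest in the same cells, at 545 CPM in JVL-14 and 437 CPM in sham neutrophils. Cxcl2 and its receptor gene Cxcr2 therefore had their highest levels in the same class in each library.

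Ccr2, which brings monocytes out of the marrow, was highest in monocytes at 916 CPM in JVL-14 and 878 CPM in sham. Dendritic cells held 468 CPM in JVL-14 and 401 CPM in sham, and innate lymphoid cells 444 and 384 CPM in that order. Cx3cr1, the fractalkine receptor of resident macrophages, stood at 756 CPM [708 to 807] in JVL-14 macrophages and 416 CPM [391 to 441] in sham macrophages. Macrophages held 79.4% of its UMIs in JVL-14 and 75.7% in sham.

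B cells carried Cxcr4, Ccr7 and Cxcr5. Cxcr4, the Cxcl12 receptor, was highest in B cell precursors, with 351 CPM in JVL-14 and 459 CPM in sham, and mature B cells held 209 and 192 CPM in that order. Ccr7, which guides cells to lymph nodes, stood at 402 CPM in JVL-14 and 401 CPM in sham mature B cells, a ratio of 1.004 [0.834 to 1.21]. Cxcr5 was nearly confined to mature B cells, with 26 of 29 UMIs in JVL-14 and 35 of 39 in sham. Ccr10 had 19 of 32 UMIs in JVL-14 and 14 of 48 in sham in mature B cells, all of them in 2 and 3 cells in that order.

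Innate lymphoid cells and T cells shared Cxcr6, the Cxcl16 receptor. Innate lymphoid cells held it at 585 CPM in JVL-14 and 480 CPM in sham, and T cells at 789 and 343 CPM in that order. Ccr8, which binds Ccl1, was confined to innate lymphoid cells in JVL-14 (34 of 34 UMIs) and mostly there in sham (52 of 58). Ccl1 and Ccr8 thus lay mainly in the same class. Of the innate lymphoid cells with a Ccl1 UMI, 6 of 15 in JVL-14 and 12 of 33 in sham also had a Ccr8 UMI. Among all innate lymphoid cells, 17 of 50 in JVL-14 and 37 of 142 in sham had a Ccr8 UMI. The overlap within cells therefore says little, and it was not tested. Arachnoid barrier cells had a Ccr8 UMI in 0 of 195 JVL-14 and 1 of 557 sham cells, at median depths of 6599 and 7757 UMIs in that order, against 4326 and 4033.5 UMIs in innate lymphoid cells. Cxcr3, the receptor for Cxcl9 and Cxcl10, was highest in T cells, at 167 CPM in JVL-14 and 135 CPM in sham.

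Within dendritic cells, Xcr1, Ccr7, Ccl22 and Ccl17 were each found in a part of the cells. Xcr1, a marker of cross-presenting dendritic cells, had a UMI in 9 of 63 JVL-14 cells and 21 of 134 sham cells, and Ccr7 in 7 and 16 cells in that order. No cell had both in either library, which says little with so few cells of each kind and was not tested. Ccl22 went with Ccr7, and 4 of 4 JVL-14 and 9 of 18 sham cells with a Ccl22 UMI also had a Ccr7 UMI. For cells with a Ccl17 UMI this was 2 of 6 in JVL-14 and 3 of 30 in sham. As a measure of free RNA, arachnoid barrier cells had a Ccr7 UMI in 1 of 195 JVL-14 and 0 of 557 sham cells and an Xcr1 UMI in 1 cell in each library, while dendritic cells had median depths of 8744 UMIs in JVL-14 and 8655 in sham. Dendritic cells were also the main place of Ccr9, with 19 of 26 UMIs in JVL-14 and 36 of 60 in sham.

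Atypical receptors lay outside the immune classes. Ackr3, which scavenges Cxcl12, was highest where Cxcl12 was highest, at 212 CPM [140 to 308] in JVL-14 and 348 CPM [293 to 410] in sham blood endothelial cells. Within cluster 18 of that class it had 214 CPM in JVL-14 and 310 CPM in sham. Ackr4, which scavenges Ccl19, Ccl21 and Ccl25, was an osteoblast lineage gene with 27 of 37 UMIs in JVL-14 and 20 of 30 in sham. Ackr1, the Duffy antigen receptor of red cells and venules, had 61 of 68 UMIs in erythroid cells in JVL-14, but 10 of 78 in sham, where 34 were in pineal cells, a class with no JVL-14 cell. In blood endothelial cells it had 0 UMIs in JVL-14 and 5 in sham.

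**Figure D2:**
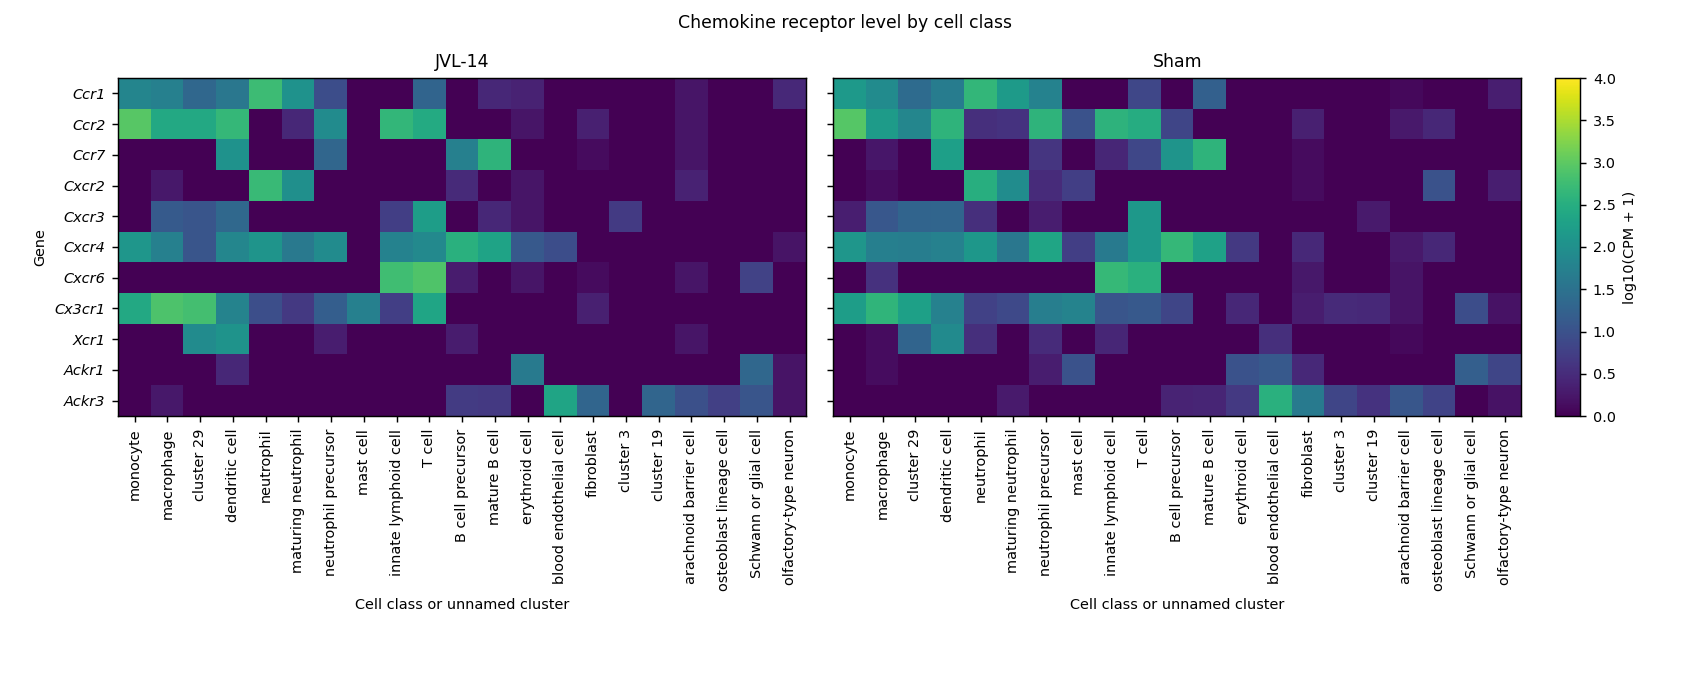
Level of the receptor and atypical receptor genes with at least 100 UMIs in all (rows) in 21 classes and unnamed clusters (columns), JVL-14 on the left and sham on the right, as log10(CPM + 1). Ccr2 is brightest in monocytes (916 CPM in JVL-14 and 878 CPM in sham), Cxcr2 in neutrophils, Cx3cr1 in macrophages, Ccr7 in mature B cells and Ackr3 in blood endothelial cells.

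JVL-14 and sham were compared within 14 named classes of at least 50 cells in each library. A gene was measured in a class with at least 30 UMIs over both libraries, and is listed as past 2-fold by its log2 ratio. This gave 135 pairs of gene and class from 44 of the genes, of which 12 were at least 2-fold higher in JVL-14 and 36 at least 2-fold lower. The share of all measured genes past 2-fold differed by class. It ran from 1.06% higher in fibroblasts to 70.6% in erythroid cells, and from 1.81% lower in mature B cells to 11.2% in neutrophil precursors. Of the 36 lower pairs, 10 were in neutrophil precursors. In 32 of these 48 pairs, 5 cells held at least 50% of the UMIs in the library where the gene was higher. Without the 5 top cells of each gene in each library, 27 of the 48 were still past 2-fold in the same direction. Some of these 27 were lower pairs with their JVL-14 UMIs in at most 5 cells, so no JVL-14 UMI was left. Examples are Cxcl12 in Schwann or glial cells, Ccl4 in neutrophils and Ccr1 in neutrophil precursors. Such ratios rest on a small value added to each count, so their staying past 2-fold says less. The number of cells left out was fixed at 5, whatever the size of the class. Where JVL-14 had fewer cells, as with 63 against 134 dendritic cells, it lost a larger share, which can lower the ratio.

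In macrophages, the inflammatory CC ligands Ccl3 and Ccl4 were higher in JVL-14, and Ccl6 was lower. Ccl3 had 946 CPM [892 to 1003] in JVL-14 and 446 CPM [421 to 472] in sham, a ratio of 2.12 [1.95 to 2.30], with 22.4% of its UMIs in 5 cells in JVL-14 and 12.3% in sham. Ccl4 had 1780 CPM [1705 to 1857] in JVL-14 and 830 CPM [795 to 865] in sham, a ratio of 2.15 [2.02 to 2.28], with 22.9% in 5 cells in JVL-14 and 29.2% in sham. Their UMIs were spread over 106 of 322 JVL-14 and 192 of 671 sham macrophages for Ccl3, and over 94 and 122 macrophages in that order for Ccl4, while olfactory-type neurons had a Ccl3 UMI in 2 cells of each library and a Ccl4 UMI in 4. Of the macrophages with a Ccl4 UMI, 72 of 94 in JVL-14 and 88 of 122 in sham also had a Ccl3 UMI. Macrophages had median depths of 2851.5 UMIs in JVL-14 and 2364 in sham. With clustering at resolution 2 the log2 ratios of Ccl3 and Ccl4 were 0.64 and 0.41, against 1.08 and 1.10 at resolution 1. Over all cells, barcodes that were left out held 33.7% of the Ccl3 UMIs in JVL-14 and 38.2% in sham. For Ccl4 they held 31.2% and 31.1% in that order. With no doublet removal the log2 ratios in macrophages were 1.095 for Ccl3 and 1.015 for Ccl4.

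Ccl6 had 282 CPM [252 to 313] in JVL-14 and 570 CPM [541 to 599] in sham macrophages, a ratio of 0.494 [0.438 to 0.557]. It was found in 139 JVL-14 and 382 sham macrophages, 5 cells held 16.9% of its UMIs in JVL-14 and 12.2% in sham, and without the 5 top cells of each library its log2 ratio was -1.08. With cells thinned to 1000 UMIs it was -0.85.

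In all, 5 of 24 measured chemokine genes were at least 2-fold higher in JVL-14 macrophages, where 1.37% of all measured genes were, and 2 of 24 were at least 2-fold lower, where 2.56% of all genes were. The median log2 ratio was 0.12 over the 24 genes and 0.01 over all measured genes. The other genes past 2-fold rested on few cells. Ccl5 had 93.6 CPM in JVL-14 and 27.8 CPM in sham macrophages, a ratio of 3.36 [2.48 to 4.58], and 5 cells held 88.4% of the UMIs in JVL-14 and 79.5% in sham. Its log2 ratio without the 5 top cells was 0.96 and that of Cxcl14 was 0.86, both under 2-fold. Cxcl1 had 32.6 CPM in JVL-14, from 39 UMIs that lay in 5 cells, and 13.7 CPM in sham, a ratio of 2.37 [1.47 to 3.84]. Without the top cells its log2 ratio was -3.90, with no JVL-14 UMI left. Cxcl14 had 27.6 CPM in JVL-14 and 10.3 CPM in sham, a ratio of 2.68 [1.56 to 4.63], and 5 cells held 60.6% of the UMIs in JVL-14 and 40.7% in sham. The B cell attractant Cxcl13 had 5.01 CPM in JVL-14, from 1 cell, and 13.7 CPM in sham, from 3 cells, a ratio of 0.365 [0.126 to 0.875], and averaged within clusters its log2 ratio was -0.75.

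Under 2-fold, the receptors Cx3cr1 and Ccr2 were also above sham in JVL-14 macrophages, with ratios of 1.82 [1.66 to 1.99] and 1.67 [1.43 to 1.94], and Ccr1 was below it at 0.658 [0.492 to 0.869]. The Ccr2 ligands Ccl2 and Ccl7 stood at 1.30 [1.22 to 1.37] and 1.20 [1.11 to 1.30]. Pf4, Ccl12, Ccl8 and Cxcl2 lay between 0.910 and 1.11.

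The macrophage class had 2 clusters with different chemokine genes, and a comparison within each shows where the differences lay. Cluster 0, led by Cd209f and complement C1q genes, held 158 JVL-14 and 381 sham cells. Cluster 2, led by MHC class II genes, held 164 JVL-14 and 290 sham cells. Ccl8, Pf4 and Ccl24 were higher in cluster 0, with Ccl8 at 2268 CPM in JVL-14 and 2179 CPM in sham, against 217 and 204 CPM in that order in cluster 2. Ccl2, Ccl3, Ccl4, Cxcl2 and Cx3cr1 were higher in cluster 2.

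The Ccl3 difference lay in cluster 2, at 1150 CPM in JVL-14 and 557 CPM in sham, a ratio of 2.06 [1.90 to 2.25]. In cluster 0 it was 91.1 CPM in JVL-14 and 89.9 CPM in sham, a ratio of 1.01 [0.583 to 1.70]. Ccl4 was above sham in both, with ratios of 2.05 [1.93 to 2.18] in cluster 2 and 1.93 [1.34 to 2.76] in cluster 0. Ccl6 was below sham in both, with ratios of 0.496 [0.432 to 0.568] and 0.504 [0.388 to 0.647] in that order. Cx3cr1 had a ratio of 1.84 [1.68 to 2.02] in cluster 2 and 1.08 [0.773 to 1.503] in cluster 0.

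Ccl2 and Cxcl2 went opposite ways in the 2 clusters. Ccl2 had 247 CPM in JVL-14 and 440 CPM in sham cells of cluster 0, a ratio of 0.562 [0.415 to 0.750], and 1896 CPM in JVL-14 and 1462 CPM in sham cells of cluster 2, a ratio of 1.30 [1.22 to 1.38]. Cxcl2 had ratios of 0.435 [0.289 to 0.633] in cluster 0 and 1.08 [1.02 to 1.13] in cluster 2. In cluster 29 Cx3cr1 had 631 CPM in JVL-14 and 184 CPM in sham, and Ccr2 had 259 CPM in JVL-14 and 67.3 CPM in sham, with 5 cells holding 88.5% of the Cx3cr1 UMIs and 84.0% of the Ccr2 UMIs of JVL-14. Ccl4 was below sham in cluster 29, at 1118 CPM in JVL-14 and 1891 CPM in sham. Its ratio there was 0.591 [0.470 to 0.738], while that of Ccl3 was 1.57 [1.20 to 2.04].

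**Figure D3:**
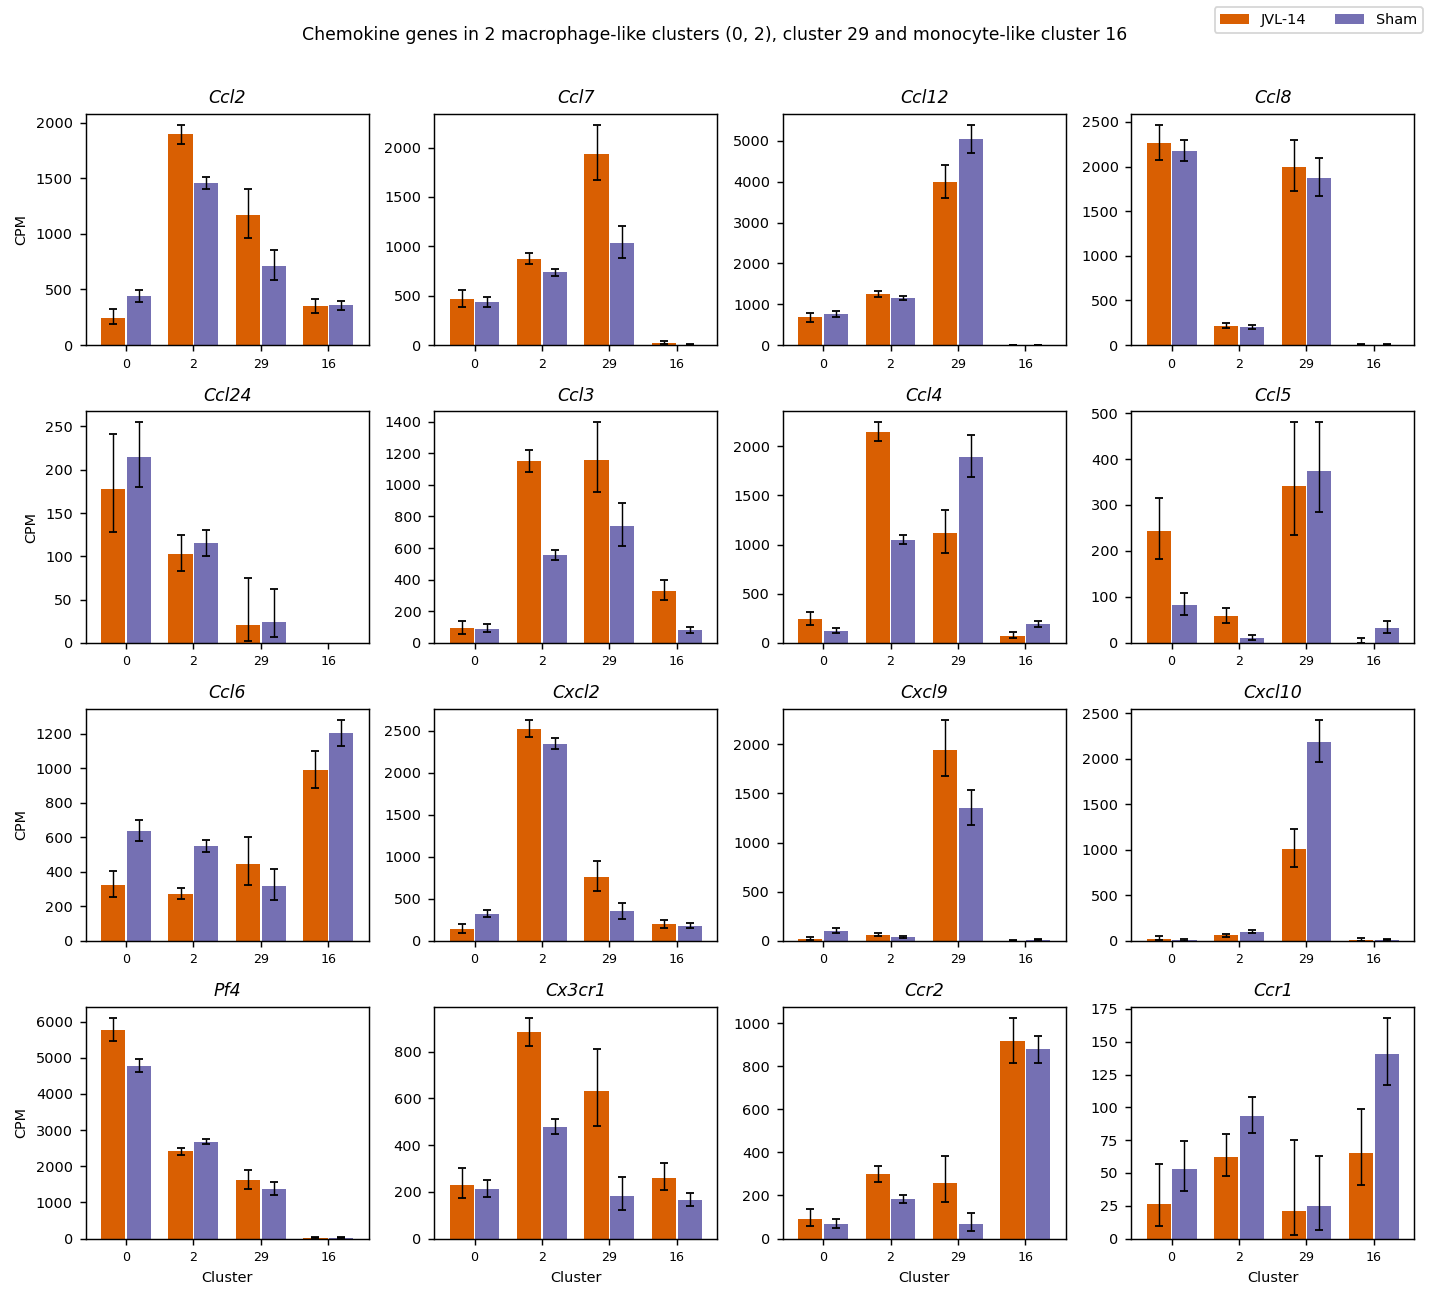
CPM of 16 chemokine genes in macrophage clusters 0 and 2, the unnamed interferon-led cluster 29 and monocyte cluster 16, with JVL-14 left of sham in each pair of bars, and bars from 0. Error bars are exact Poisson 95% intervals for counting error. Ccl3 stands at 1150 CPM in JVL-14 and 557 CPM in sham in cluster 2 but at 91.1 and 89.9 CPM in that order in cluster 0, while Ccl6 is lower in JVL-14 in both clusters.

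Monocytes (40 cells in JVL-14 and 99 in sham) were under the size for a comparison of classes. Their Ccr2 was 916 CPM in JVL-14 and 878 CPM in sham, Ccl3 was 329 and 79.6 CPM in that order, and Ccl4 was 71.1 and 190.3 CPM. The opposite order of Ccl3 and Ccl4 here went with few cells, as 5 cells held 76.6% of the Ccl3 UMIs of JVL-14.

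Dendritic cells had 63 cells in JVL-14 and 134 in sham. Of 26 measured chemokine genes, 6 were at least 2-fold lower in JVL-14, where 4.39% of all measured genes were, and 1 was at least 2-fold higher, where 1.26% of all genes were. Ccl17 had 100.2 CPM [75.9 to 129.8] in JVL-14 and 335 CPM [304 to 368] in sham, a ratio of 0.299 [0.223 to 0.395]. It was found in 6 of 63 JVL-14 cells and 30 of 134 sham cells, and in 0 of 322 JVL-14 and 6 of 671 sham macrophages, and 5 cells held 98.2% of its UMIs in JVL-14 dendritic cells and 69.9% in sham ones. Ccl22, its partner as a Ccr4 ligand, had 56.3 CPM in JVL-14 and 107 CPM in sham, a ratio of 0.525 [0.346 to 0.776]. Ccr7 had 109 and 177 CPM in that order, a ratio of 0.615 [0.456 to 0.818]. Both rested on few cells. All Ccl22 UMIs of JVL-14 lay in 4 cells, and 5 cells held 77.2% of those in sham. For Ccr7, 5 cells held 95.2% of the UMIs in JVL-14 and 64.4% in sham.

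The Cxcr2 ligands whose promoters are shown above were all lower in JVL-14 dendritic cells. Cxcl2 had 227 CPM in JVL-14 and 632 CPM in sham, a ratio of 0.359 [0.296 to 0.433], with 80.6% of its UMIs in 5 cells in JVL-14 and 82.5% in sham. Cxcl1 had 0 UMIs in JVL-14 and 33 in sham, and Cxcl3 had 0 and 31. Against a floor of 3 UMIs in the JVL-14 class, Cxcl1 was at least 4.93-fold and Cxcl3 at least 4.63-fold lower. All of these sham UMIs, 26.0 CPM for Cxcl1 and 24.4 CPM for Cxcl3, lay in 4 cells for Cxcl1 and in 3 cells for Cxcl3, and the upper interval bounds of the ratios were 0.264 and 0.282. The macrophage genes Ccl24 and Pf4 were lower in JVL-14 dendritic cells too, Ccl24 at least 6.42-fold with 0 UMIs in JVL-14 and 43 in sham (33.9 CPM), of which 93.0% lay in 5 cells. Pf4 had 26.4 CPM in JVL-14 and 172 CPM in sham, a ratio of 0.154 [0.0845 to 0.259], with 73.3% of its UMIs in 5 cells in JVL-14 and 91.7% in sham. Without the 5 top cells the log2 ratio of Pf4 was -0.85, against -2.66, and with cells thinned to 1000 UMIs that of Ccl24 was -0.49, against -5.29, so neither passed 2-fold there. Ccl12 had 84.4 CPM in JVL-14, from 2 cells, and 15.8 CPM in sham, with 95% of the UMIs in 5 cells, a ratio of 5.36 [3.12 to 9.53]. Its direction turned without the 5 top cells, with a log2 ratio of -0.40, but no JVL-14 UMI was left there.

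Fibroblasts had 7 of 18 measured chemokine genes at least 2-fold lower in JVL-14, where 2.23% of all measured genes were, and 0 at least 2-fold higher, where 1.06% of all genes were. The median log2 ratio was -0.81 over the 18 genes and 0.02 over all measured genes. Ccl11, which attracts eosinophils, had 59.7 CPM [51.5 to 68.8] in JVL-14 and 227 CPM [215 to 239] in sham, a ratio of 0.263 [0.225 to 0.306]. Cxcl14 had 62.5 CPM in JVL-14 and 144 CPM in sham, a ratio of 0.433 [0.370 to 0.506]. Ackr3 had 18.9 CPM in JVL-14 and 44.1 CPM in sham, a ratio of 0.429 [0.319 to 0.569]. The 5 top cells held at most 45.5% of the UMIs of these 3 genes in JVL-14 and at most 26.7% in sham. The neutrophil attractant Cxcl1 had 42.3 CPM [35.4 to 50.1] in JVL-14 and 125 CPM [117 to 134] in sham, a ratio of 0.338 [0.279 to 0.406], with 38.8% of its UMIs in 5 cells in JVL-14 and 23.1% in sham. Ccl2 had 6.31 CPM in JVL-14 and 49.3 CPM in sham, a ratio of 0.128 [0.0772 to 0.201], with 65.0% and 65.8% in 5 cells in that order. With no doublet removal its log2 ratio was -1.22, against -2.93. Ccl8 had 1.58 CPM in JVL-14 and 8.67 CPM in sham, and Cxcl5 had 1.26 and 4.33 CPM in that order, with ratios of 0.182 [0.0568 to 0.452] and 0.291 [0.0741 to 0.836]. These rested on 5 and 4 UMIs in JVL-14, and 5 cells held 83.3% of the sham Ccl8 UMIs and 85.2% of the sham Cxcl5 UMIs.

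These 7 genes came from different fibroblast clusters. Cluster 31, led by Clec3b, Gsn and Pi16, held 2 JVL-14 and 62 sham cells, and its sham cells had Ccl11 at 2688 CPM, Cxcl14 at 967 CPM and Ackr3 at 490 CPM. Without cluster 31 the log2 ratio of Ccl11 was -0.35, against -1.92 with it, that of Cxcl14 was -0.56, against -1.20, and that of Ackr3 was 0.24, against -1.21. So 3 of the 7 genes, Cxcl1, Ccl2 and Cxcl5, were at least 2-fold lower without cluster 31, while Ccl8 was too scarce to be measured there. A difference between the animals and a difference in the dissection cannot be told apart for cluster 31.

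Cxcl1 and Ccl2 were lower inside clusters with cells of both libraries. In cluster 4 (138 JVL-14 and 266 sham cells, led by Plac9, Inmt and Lum) Cxcl1 had 65.1 CPM in JVL-14 and 236 CPM in sham, a ratio of 0.277 [0.212 to 0.356]. In cluster 21 (49 JVL-14 and 72 sham cells, led by Apod and Ptgds) it had 192 CPM in JVL-14 and 618 CPM in sham, a ratio of 0.311 [0.201 to 0.466]. In cluster 9 it had 6.16 CPM in JVL-14 and 25.2 CPM in sham, and in cluster 5, against this direction, 24.4 CPM in JVL-14 and 11.2 CPM in sham. Ccl2 had 6.87 CPM in JVL-14, from 1 UMI, and 699 CPM in sham in cluster 21, where 5 cells held 97.5% of the sham UMIs. In cluster 4 it had 11.9 CPM in JVL-14 and 48.3 CPM in sham. Ccl7 had 55.0 CPM in JVL-14 and 393 CPM in sham in cluster 21, but 45.0 CPM in JVL-14 and 32.2 CPM in sham in cluster 4, a ratio of 1.40 [0.942 to 2.06].

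Cxcl12 differed in sign between these clusters. In cluster 4 it had 524 CPM in JVL-14 and 873 CPM in sham, a ratio of 0.600 [0.545 to 0.660], and in cluster 21 it had 694 CPM in JVL-14 and 383 CPM in sham, a ratio of 1.81 [1.37 to 2.40]. Cxcl16 in cluster 21 was also above sham, with 680.1 CPM in JVL-14 and 386 CPM in sham. Ccl19, which had 462 CPM in JVL-14 and 397 CPM in sham in cluster 4, lay within 2-fold in clusters 4, 5 and 9, but was lower in cluster 21, with 41.2 CPM in JVL-14 and 123 CPM in sham, a ratio of 0.335 [0.115 to 0.806] from 6 and 35 UMIs.

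**Figure D4:**
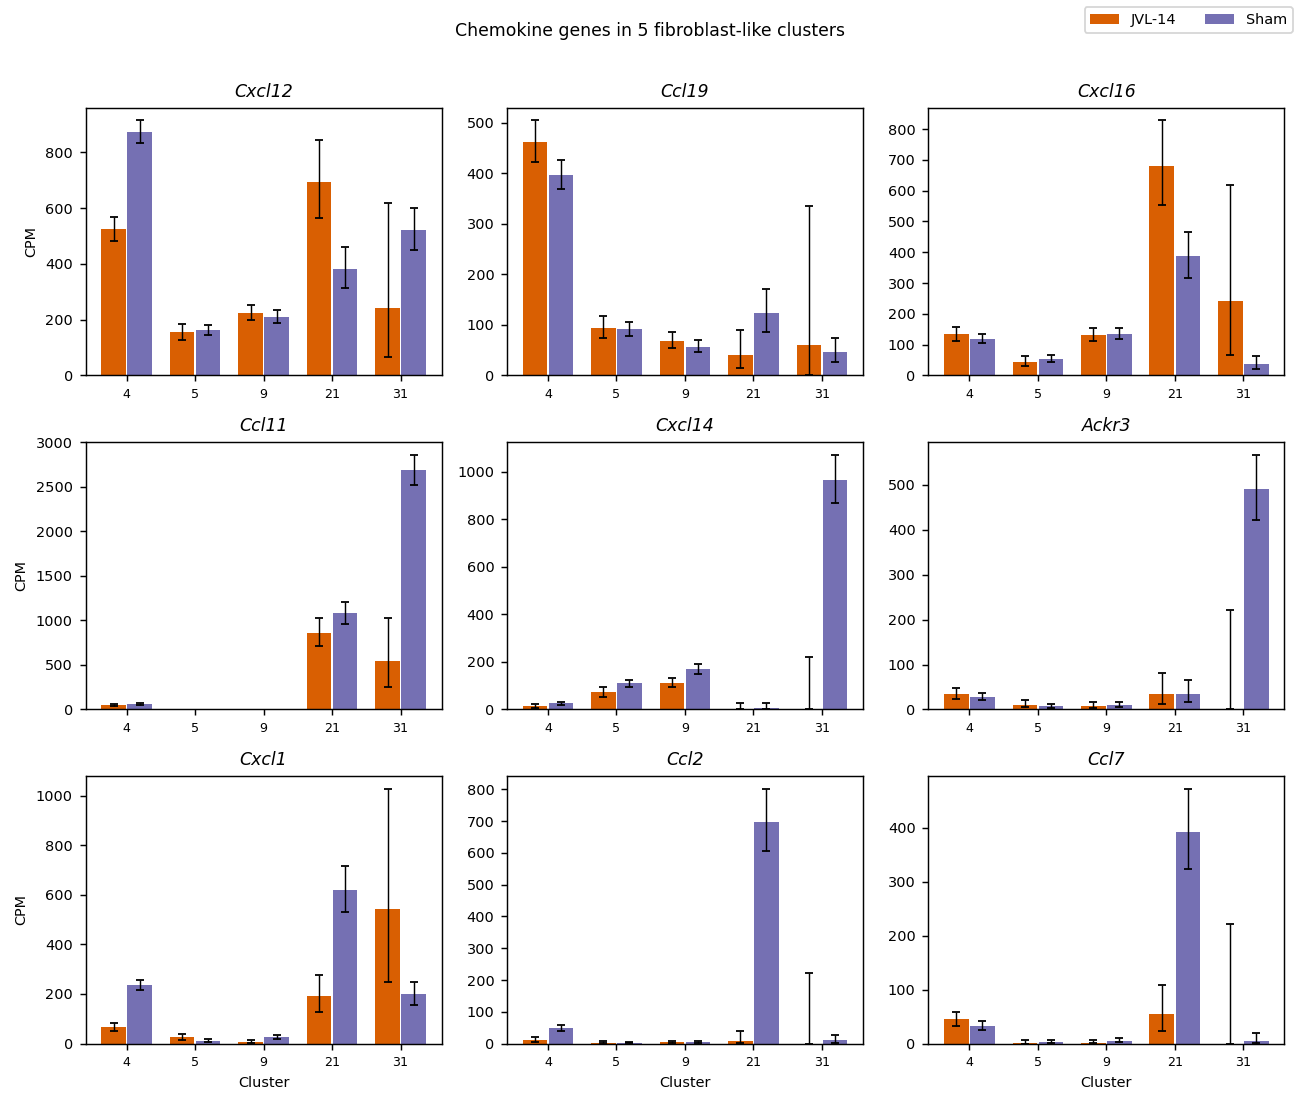
CPM of 9 chemokine genes in the 5 fibroblast clusters, with JVL-14 left of sham in each pair of bars, and bars from 0. Error bars are exact Poisson 95% intervals for counting error. Ccl11, Cxcl14 and Ackr3 are highest in the sham cells of cluster 31, which has 2 cells in JVL-14, and Cxcl1 is lower in JVL-14 in clusters 4 and 21.

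Innate lymphoid cells (50 cells in JVL-14 and 142 in sham) had 3 of 8 measured chemokine genes at least 2-fold higher in JVL-14, where 2.09% of all measured genes were, and 0 at least 2-fold lower, where 4.40% of all genes were. Cxcl2 had 1877 CPM [1701 to 2067] in JVL-14 and 878 CPM [803 to 958] in sham. Its ratio was 2.14 [1.87 to 2.44], it stood at 3.76 CPM in JVL-14 and 2.98 CPM in sham olfactory-type neurons, and 5 cells held 69.6% of its UMIs in JVL-14 and 31.7% in sham. Without the 5 top cells of each library its log2 ratio was 0.06. Cxcl10 had 367 CPM in JVL-14 and 183 CPM in sham, a ratio of 2.01 [1.48 to 2.70], with 97.5% of its UMIs in 5 cells in JVL-14 and 87.7% in sham, and a log2 ratio of -0.92 without the top cells. Cxcl1 had 90.7 CPM in JVL-14, from 3 cells, and 17.3 CPM in sham, from 5 cells, a ratio of 5.25 [2.34 to 12.6]. Ccl1 and Ccr8, which lay mainly in this class, were within 2-fold, with ratios of 1.20 [0.964 to 1.48] and 1.72 [1.08 to 2.69]. So were Cxcr6 at 1.22 [0.980 to 1.51] and Ccr2 at 1.16 [0.904 to 1.48], which other classes carried too.

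Neutrophils (56 cells in JVL-14 and 83 in sham) had 2 of 8 measured chemokine genes at least 2-fold lower in JVL-14, where 2.95% of all measured genes were, and 0 at least 2-fold higher, where 2.17% of all genes were. Ccl4 had 1 UMI (4.13 CPM) in JVL-14 and 81 UMIs (203 CPM) in sham, a ratio of 0.0203 [0.000508 to 0.116], and 5 cells held 92.6% of the sham UMIs. With no doublet removal its log2 ratio was -1.75, against -5.05. Cxcl3 had 28.9 CPM in JVL-14, from 5 cells, and 133 CPM in sham, with 88.7% of the UMIs in 5 cells, a ratio of 0.217 [0.0833 to 0.479]. The main neutrophil genes Cxcl2 and Ccl6 had ratios of 1.14 [1.08 to 1.21] and 0.861 [0.770 to 0.962]. In maturing neutrophils (57 and 101 cells) 0 of 6 measured genes passed 2-fold in either direction, where 1.79% of all genes were higher and 2.74% lower.

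In arachnoid barrier cells (195 cells in JVL-14 and 557 in sham) 1 of 14 measured genes was at least 2-fold higher, Cxcl13, where 1.44% of all genes were, and 3 were at least 2-fold lower, Pf4, Cxcl2 and Ccl2, where 2.20% of all genes were. Cxcl13 had 19.6 CPM in JVL-14 and 7.34 CPM in sham, a ratio of 2.68 [1.56 to 4.55], with 82.1% of its UMIs in 5 cells in JVL-14 and 52.9% in sham. It did not keep this direction at resolution 2, where its log2 ratio was -0.069. Pf4 had 4.21 CPM in JVL-14 and 11.2 CPM in sham, Cxcl2 had 2.81 and 14.5 CPM in that order, and Ccl2 had 3.51 and 9.06 CPM. Their ratios were 0.375 [0.132 to 0.873], 0.194 [0.0514 to 0.520] and 0.387 [0.119 to 0.977], from 4 to 6 UMIs in JVL-14, and in sham 5 cells held 40.4% of the Pf4, 98.5% of the Cxcl2 and 73.8% of the Ccl2 UMIs. The direction of Cxcl2 turned without the 5 top cells, with a log2 ratio of 0.14, and over the alternatives that of Pf4 lay between -4.24 and -0.82. Without the 5 top cells no JVL-14 UMI of either gene was left.

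**Figure D5:**
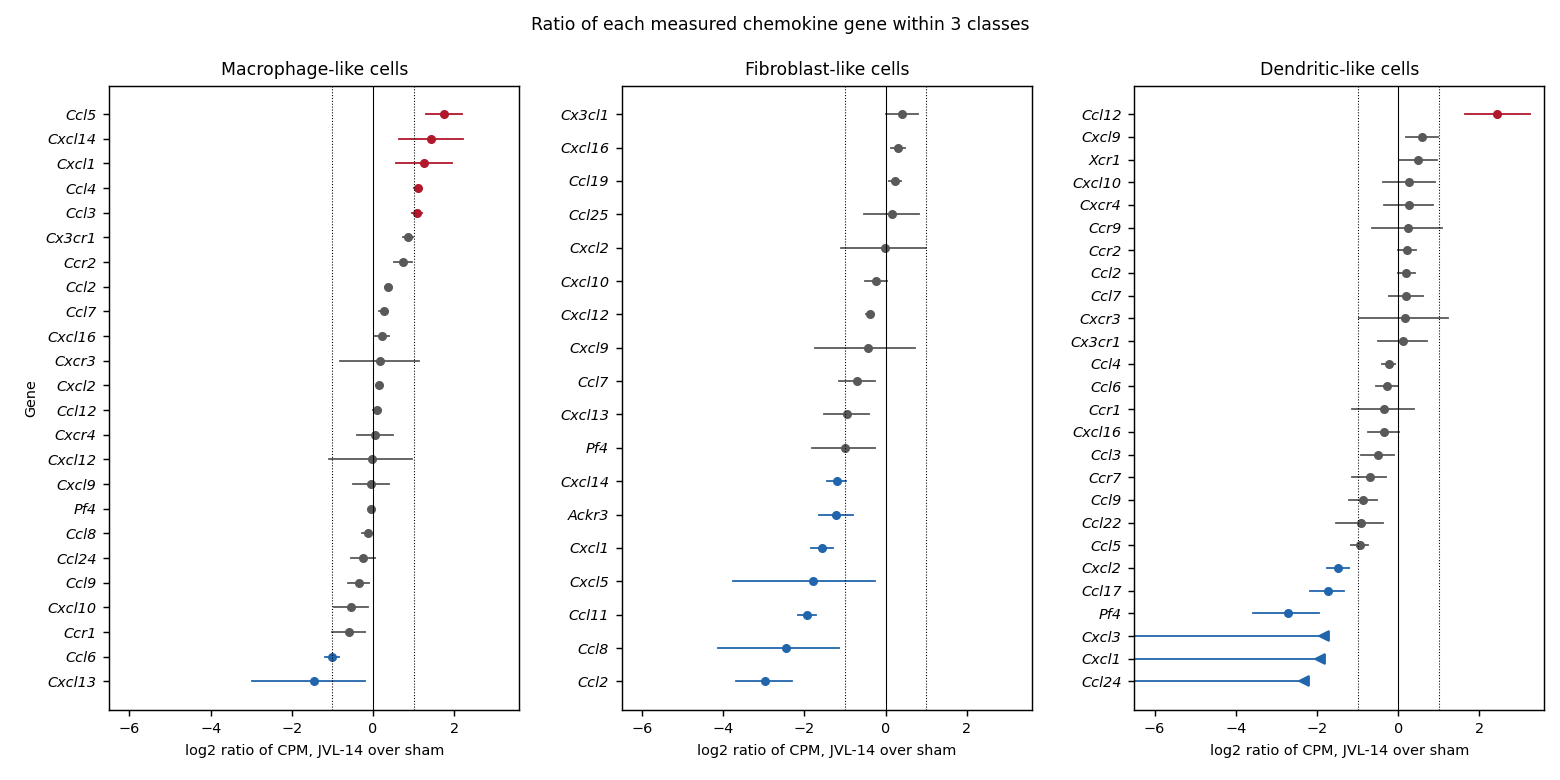
Log2 ratio of CPM, JVL-14 over sham, for each measured chemokine gene in macrophages, fibroblasts and dendritic cells, with exact conditional 95% intervals for counting error. Red points are at least 2-fold higher and blue ones at least 2-fold lower in JVL-14, dotted lines mark 2-fold, and a triangle marks the upper bound of a gene with 0 UMIs in JVL-14. Ccl3 and Ccl4 stand at 1.08 and 1.10 in macrophages, and the 7 blue points of the fibroblasts include Ccl11, Cxcl1 and Ccl2.

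In the B lineage, Ccr7 was lower in JVL-14 B cell precursors, at 53.8 CPM [40.4 to 70.2] against 116 CPM [91.5 to 144] in sham, a ratio of 0.465 [0.322 to 0.666], with 29.6% of its UMIs in 5 cells in JVL-14 and 30.8% in sham. The class is made of clusters 7 (178 JVL-14 and 171 sham cells) and 30 (46 and 20 in that order), and averaged within them the log2 ratio was -0.96, which is under 2-fold. It was the 1 gene of 3 measured to be at least 2-fold lower, where 3.24% of all genes were, and 0 were at least 2-fold higher, where 2.51% of all genes were. Cxcr4 in the same class had a ratio of 0.765 [0.654 to 0.894]. In mature B cells 0 of 4 measured genes passed 2-fold in either direction, where 2.89% of all genes were higher and 1.81% lower.

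Neutrophil precursors had 10 of 13 measured genes at least 2-fold lower in JVL-14, where 11.2% of all genes were, and 0 at least 2-fold higher, where 7.01% of all genes were. The class had median depths of 7598 UMIs in JVL-14 and 18543 in sham, and in JVL-14 the granule protease genes Elane, Prtn3 and Ctsg were higher with ratios of 7.63, 2.72 and 2.93, so the cells of the libraries differed in more than chemokine genes. The part of this in the chemokine values was not tested. The receptor genes Ccr2 and Cxcr4 each had 83.0 CPM in JVL-14, against 396 CPM for Ccr2 and 219.7 CPM for Cxcr4 in sham. Cx3cr1 had 14.6 CPM in JVL-14 and 49.6 CPM in sham, and Ccr1 had 7.85 and 58.1 CPM in that order. Ccl2 had 49.3 CPM in JVL-14 and 241 CPM in sham, Ccl3 had 51.6 and 131 CPM, Ccl6 had 41.5 and 199 CPM, Ccl9 had 44.8 and 171 CPM, and Cxcl16 had 2.24 and 37.0 CPM. Ccl5 had 0 UMIs in JVL-14 and 66.5 CPM in sham, all from 1 cell, at least 19.8-fold lower. The upper interval bounds of the 10 ratios lay between 0.0640 (Ccl5) and 0.556 (Ccl3), and in sham 5 cells held between 27.4% (Cxcr4) and 100% (Ccl5 and Cxcl16) of the UMIs. With no doublet removal 4 of the 10 were within 2-fold: the log2 ratio was -0.27 for Ccl5, against -6.90, -0.65 for Cx3cr1, -0.72 for Ccl3 and -0.74 for Cxcr4.

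In erythroid cells 70.6% of all measured genes were at least 2-fold higher and 2.33% at least 2-fold lower. Among the 3 genes measured there, Ackr1 was higher with 43.2 CPM in JVL-14 and 9.10 CPM in sham, a ratio of 4.75 [2.41 to 10.4], and 5 cells held 39.3% of the UMIs in JVL-14 and 80.0% in sham. Pf4 (12.03 CPM in JVL-14 and 38.2 CPM in sham) and Ccl8 (3.54 and 48.2 CPM in that order) were lower, with ratios of 0.315 [0.168 to 0.565] and 0.0734 [0.0229 to 0.182] and at least 88.2% of the UMIs in 5 cells in each library. The libraries filled the clusters of this class differently, with 76 JVL-14 and 28 sham cells in cluster 23 and 28 and 62 in that order in cluster 26. Averaged within clusters the log2 ratio was 0.96 for Ackr1, against 2.19, and -0.54 for Pf4, against -1.64, both under 2-fold, and scaled by the median ratio of all genes that of Ackr1 was 0.70. Schwann or glial cells had 1 of 2 measured genes higher, where 11.4% of all genes were, and 1 lower, where 7.09% of all genes were. Cxcl1 had 368 CPM in JVL-14 and 162 CPM in sham, from 3 cells each, a ratio of 2.27 [1.38 to 3.89], and with the mean over cells its log2 ratio was 0.59. Cxcl12 had 47.3 CPM in JVL-14, from 2 cells, and 239.5 CPM in sham, with 64.5% of the UMIs in 5 cells, a ratio of 0.198 [0.0828 to 0.425].

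Osteoblast lineage cells had 2 of 5 measured genes lower, where 3.53% of all genes were, and 0 higher, where 1.80% of all genes were. Cxcl2 had 4.66 CPM in JVL-14 and 56.1 CPM in sham, the sham UMIs all from 1 cell, a ratio of 0.0830 [0.00962 to 0.326]. Cxcl14 had 11.6 CPM in JVL-14 and 61.6 CPM in sham, from 3 cells each, a ratio of 0.189 [0.0577 to 0.486], and with no doublet removal its direction turned, with a log2 ratio of 0.55. Olfactory-type neurons had 0 of 1 measured gene past 2-fold, where 2.44% of all genes were higher and 2.62% lower.

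Genes around the chemokine system were counted in the same way, against shares over all genes of 1.37% higher and 2.56% lower in macrophages, 1.06% higher and 2.23% lower in fibroblasts and 1.26% higher and 4.39% lower in dendritic cells. Of 39 genes of chemokine receptor signalling (G protein subunits, kinases, arrestins and regulators), 36 were measured in macrophages, with 0 at least 2-fold higher and 1 lower, the receptor kinase gene Grk6, and a median log2 ratio of 0.11. In fibroblasts 25 were measured, with 0 higher and 1 lower (Gng2), and in dendritic cells 35, with 0 higher and 1 lower (Plcb2). Of 17 genes of proteases that can cleave chemokines, 11 were measured in fibroblasts, with 0 higher and 4 lower: Mmp3 (17 UMIs in JVL-14 and 213 in sham), Mmp9 (34 and 230), Dpp4 (4 and 46) and Ctss (7 and 35). In macrophages 8 of the 17 were measured, with Mmp14 higher (35 and 38 UMIs in that order) and Mmp9 lower (19 and 135). Of 12 further chemokine family genes, 3 were measured in macrophages and in fibroblasts, and 0 of these passed 2-fold in either class.

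T cells, at 23 in JVL-14 and 39 in sham, were too few to compare. In JVL-14 they held the macrophage genes Pf4 at 1012 CPM and Ccl2 at 548 CPM, and in sham Pf4 at 220.2 CPM and Ccl2 at 0 UMIs, and 5 cells held 100% of those JVL-14 UMIs. Xcl1 in these cells was 993 CPM in JVL-14 and 422 CPM in sham. Of the T cells with an Xcl1 UMI, 8 of 10 in JVL-14 and 11 of 14 in sham also had a Ccl5 UMI.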

How the data were processed

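The deposited files hold raw counts (UMIs per gene and filtered barcode), written by Cell Ranger 8.0.0, per the file headers, and the submitters' processing notes name mm39 as the build. No annotation is stated. The JVL-14 library held 3004 barcodes and 18796260 UMIs, the sham library 5495 and 33996641. Barcodes with under 200 genes (244 in JVL-14 and 266 in sham) or over 10% mitochondrial UMIs (154 and 288) were left out. Scrublet marked 0.166% and 0.0910% of barcodes, under the set minimum of 0.5%, so the top 5% of scores (164 and 298) were removed. Doublets that score low can remain.

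Clustering (scanpy 1.11.5, Leiden, resolution 1) used log values at 10000 UMIs per cell, 2000 variable genes chosen without the 52 members, 30 components and 15 neighbours, and gave 39 clusters. A cluster took the best-scoring class of those with at least 3 markers raised 1.5-fold, at a score of at least 0.42. These limits were set after the clusters were seen. UMIs were summed per class and library. Levels carry exact Poisson and ratios exact conditional binomial 95% intervals, which cover counting error only. Log2 ratios had 0.5 added to each count, and 2-fold was applied to them. The code was tested on simulated data. A gene got its own values with at least 100 UMIs over both libraries, and every measured gene past 2-fold in a compared class was named. The members, gene lists and alternatives were chosen with earlier results of these data known. Alternatives changed the filters, doublet removal, clustering, top cells, cell weighting and thresholds.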

Additional observations from a re-analysis of the deposited data

Results flagged for a closer look

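Some genes were past 2-fold in opposite directions in different classes, and these differences between classes were not tested. The values are log2 ratios, JVL-14 over sham. Ccl3 was at 1.08 in macrophages and -1.33 in neutrophil precursors, Ccl4 at 1.10 in macrophages and -5.05 in neutrophils, and Ccl5 at 1.75 in macrophages and -6.90 in neutrophil precursors, where it had 0 UMIs in JVL-14 and all 63 sham UMIs came from 1 cell. With no doublet removal Ccl4 in neutrophils was at -1.75, and Ccl5 in neutrophil precursors at -0.27, within 2-fold. Cxcl1 was at 1.25 in macrophages, 2.36 in innate lymphoid cells and 1.16 in Schwann or glial cells, but at -1.56 in fibroblasts and -4.91 in dendritic cells. Cxcl2 was at 1.10 in innate lymphoid cells, -1.47 in dendritic cells, -2.21 in arachnoid barrier cells and -3.29 in osteoblast lineage cells. Cxcl13 was at 1.43 in arachnoid barrier cells and -1.36 in macrophages. Cxcl14 was at 1.42 in macrophages, -1.20 in fibroblasts and -2.29 in osteoblast lineage cells.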

How the results depend on the processing

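With 1 library per group, no library could be left out. No paired analysis was possible because each group has 1 library. Of the 48 pairs of gene and class past 2-fold, 40 kept their sign in every alternative that gave a value and 20 stayed past 2-fold in all of them, among them Cxcl1 in fibroblasts and Ccl17 in dendritic cells. Pairs with all their UMIs in at most 5 cells of each library gave no value without the 5 top cells. Among the 20 these were Cxcl3 and Cxcl1 in dendritic cells, Ccl8 in erythroid cells and Cxcl1 in innate lymphoid cells. Cxcl16 in neutrophil precursors and Cxcl2 in osteoblast lineage cells were the others, so their staying past 2-fold says less. Further pairs of the 20 gave a value there but had no JVL-14 UMI left, so their staying past 2-fold also says less. These were Cxcl12 in Schwann or glial cells, Cxcl5 in fibroblasts, and Cxcl3 and Ccl4 in neutrophils. Ccl2 in arachnoid barrier cells and in neutrophil precursors, and Ccr1 in neutrophil precursors, were the rest. The causes of the changes below were not tested, except that a higher minimum of UMIs measures fewer genes. Leaving out fibroblast cluster 31 was chosen after seeing the data. Depth limits the comparison to genes and classes with at least 30 UMIs.

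Over all classes, 12 pairs were at least 2-fold higher and 36 lower. The share over all genes was found at the main setting only, so the counts under the alternatives below have no such share beside them. Without the 5 top cells of each gene 3 were higher, at Leiden resolution 2 there were 5, at a minimum of 100 UMIs there were 5 higher and 16 lower, and at 10 UMIs 21 higher and 58 lower. With no doublet removal, dendritic cells had 0 genes higher, fibroblasts 1 higher and 11 lower, and innate lymphoid cells 1 higher. With cells thinned to 1000 UMIs, dendritic cells had 4 higher, fibroblasts 2 higher and innate lymphoid cells 1 lower. Without the 5 top cells, dendritic cells had 13 lower, innate lymphoid cells 0 higher and macrophages 1 higher. With the 52 genes kept among the variable genes, dendritic cells had 11 lower, and at resolution 2 they had 11 lower and macrophages 2 higher and 0 lower. At a minimum of 100 UMIs, dendritic cells had 0 higher and 3 lower, macrophages 3 higher and 1 lower, and neutrophils 0 lower. At 10 UMIs, fibroblasts had 2 higher and 12 lower, innate lymphoid cells 3 lower and neutrophils 4 lower. At 1.5-fold, dendritic cells had 10 lower and neutrophils 1 higher. With the mean over cells, innate lymphoid cells had 1 higher and macrophages 1 lower, and averaged within clusters macrophages had 1 lower. Without cluster 31, fibroblasts had 3 lower.

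The log2 ratio turned its sign without the 5 top cells for Cxcl2 in arachnoid barrier cells (0.14), Ccl12 in dendritic cells (-0.40), Cxcl10 in innate lymphoid cells (-0.92) and Cxcl1 in macrophages (-3.90). Of these, Cxcl2, Ccl12 and Cxcl1 had no JVL-14 UMI left, so their JVL-14 values rest on the 0.5 added to each count. Cxcl13 in arachnoid barrier cells was at -0.12 with the 52 genes kept among the variable genes and at -0.069 at resolution 2. In fibroblasts, Ackr3 was at 0.21 averaged within clusters and 0.24 without cluster 31, and Ccl8 at 0.094 averaged within clusters. Cxcl14 in osteoblast lineage cells was at 0.55 with no doublet removal.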
